A study of Rattus norvegicus with 15 samples.

Results

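The cell cycle and DNA replication genes of rat digestive epithelium were followed through 5 segments of the tract. The set was a list of 40 genes: 7 cyclins and cyclin-dependent kinases, 12 genes of replication licensing, helicase and fork, 4 genes of nucleotide supply, 9 mitotic kinases and genes of the spindle checkpoint and anaphase ubiquitin ligase, and 8 genes of mitotic chromosomes, spindle motors and the spindle midzone. A probe was assigned to a gene by its RefSeq accession in the scanner files, or failing that by the gene's current symbol or an older one. Older symbols include Cdc2a for Cdk1 and Stk6 for Aurka. The brightest probe stood for a gene. Probes were found for 39 of the 40 genes, all 39 passed the filter on dim probes, and they were tested among 33111 genes in all. Cdc45 had no probe. No measured value entered the choice of the genes by the rule, but the list was proposed with earlier results of these data known.

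The study compared suspended mucosal cells from the stomach, the 3 segments of the small bowel (duodenum, jejunum and ileum) and the colon of rats given no treatment, with 3 samples per segment and 15 in all. The labels give Sprague Dawley males for every sample except ileum 3, whose labels name neither strain nor sex, and they give no age. Cells were freed from the inverted segments by a brief pronase treatment and purified by elutriation, and total RNA was amplified, labelled with Cy3 or Cy5 and hybridised to Agilent whole-genome rat arrays; the series describes 3 independent isolations. Whether each isolation used a different animal is not in the labels, and p-values rest on the spread among isolations alone, which may be technical.

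Cells enter the division cycle when E cyclins with Cdk2 start DNA replication from origins licensed by the Mcm helicase, and they enter mitosis when Cdk1 with B cyclins becomes active. Transcription of these genes is periodic: replication genes are driven by E2F factors in late G1 and S phase, and mitotic genes by the MuvB complex with B-Myb and FoxM1 in G2 and M phase. In the intestine division is confined to the crypts, whose cells move to the villus or surface as they differentiate, while in the stomach it takes place in the isthmus of the glands.

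Promoters of the genes are shown first, because the replication and the mitotic genes differed in the sequence motifs they held. RefSeq promoters of the GRCr8 assembly, 250 bases before to 50 bases after the transcript start, were matched by symbol for 32 of the 40 genes (not for Ccna2, Ccne2, Cdc6, Mcm4, Rrm2, Aurkb, Ube2c and Tpx2). On both strands, 3 kinds of motif were searched: the E2F octamers TTTGGCGC, TTTCCCGC, TTTCGCGC and TTTGCCGC, the cell cycle homology region (CHR) TTTGAA or TTTAAA, and the CCAAT box. The E2F and CCAAT letters can overlap by a base, and did so in Mcm7. Among the 10 replication genes with a promoter, 7 held an E2F octamer and 1, Mcm2, held a CHR. Among the 14 mitotic genes with a promoter, 7 of 7 kinase and checkpoint genes and 7 of 7 chromosome and spindle genes held a CHR, and 0 of each held an E2F octamer. Over the whole table of 27457 promoters of the same length, 2.25% held an E2F octamer, 27.9% a CHR and 37.7% a CCAAT box, against 28.1%, 59.4% and 71.9% of the 32 promoters. A match is a description of the letters only, and binding was not measured. The 6 promoters printed are of genes with a small p in the F test over segments that held a searched motif, at most 2 per role. Each is the 250 bases before the start, 5′ to 3′, in GRCr8 coordinates: Ccnb1 at chr2:33655226-33655475 on the minus strand, Mcm3 at chr9:30733747-30733996 on the minus strand, Mcm7 at chr12:22163179-22163428 on the minus strand, Rrm1 at chr1:166235654-166235903 on the plus strand, Aurka at chr3:181560770-181561019 on the minus strand and Kif23 at chr8:71320585-71320834 on the minus strand. Capitals mark the motifs, E2F octamers as TTTCCCGC (or GCGGGAAA on the other strand) and TTTCGCGC, CHR as TTTAAA or TTTGAA, and the CCAAT box as CCAAT or ATTGG.
Ccnb1: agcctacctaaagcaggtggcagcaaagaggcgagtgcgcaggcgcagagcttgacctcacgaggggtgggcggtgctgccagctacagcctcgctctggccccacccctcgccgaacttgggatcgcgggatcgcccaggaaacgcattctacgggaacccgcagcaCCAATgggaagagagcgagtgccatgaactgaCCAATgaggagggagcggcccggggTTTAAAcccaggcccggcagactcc
Mcm3: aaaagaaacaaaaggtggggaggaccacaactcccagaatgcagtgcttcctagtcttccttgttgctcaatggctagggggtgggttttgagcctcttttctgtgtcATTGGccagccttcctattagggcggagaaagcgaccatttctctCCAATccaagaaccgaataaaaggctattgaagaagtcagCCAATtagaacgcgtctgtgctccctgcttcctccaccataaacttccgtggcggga
Mcm7: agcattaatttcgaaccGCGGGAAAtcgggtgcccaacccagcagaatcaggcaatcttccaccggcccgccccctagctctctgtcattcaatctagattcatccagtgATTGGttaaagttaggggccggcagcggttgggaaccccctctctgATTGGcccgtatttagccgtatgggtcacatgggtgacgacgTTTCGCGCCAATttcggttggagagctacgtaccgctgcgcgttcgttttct
Rrm1: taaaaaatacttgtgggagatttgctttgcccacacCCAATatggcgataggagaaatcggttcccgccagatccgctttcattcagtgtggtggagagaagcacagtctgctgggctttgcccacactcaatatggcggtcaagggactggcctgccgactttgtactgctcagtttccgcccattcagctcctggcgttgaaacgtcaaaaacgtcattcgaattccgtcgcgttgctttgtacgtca
Aurka: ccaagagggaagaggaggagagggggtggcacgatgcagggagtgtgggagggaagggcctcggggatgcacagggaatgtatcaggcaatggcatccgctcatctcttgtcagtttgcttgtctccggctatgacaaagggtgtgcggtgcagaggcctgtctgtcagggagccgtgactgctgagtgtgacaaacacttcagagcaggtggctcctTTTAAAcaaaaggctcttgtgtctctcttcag
Kif23: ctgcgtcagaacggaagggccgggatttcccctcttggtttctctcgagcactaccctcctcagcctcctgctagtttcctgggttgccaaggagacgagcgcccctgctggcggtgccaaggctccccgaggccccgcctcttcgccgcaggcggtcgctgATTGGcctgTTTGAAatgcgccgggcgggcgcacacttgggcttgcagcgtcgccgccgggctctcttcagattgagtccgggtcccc

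The Mcm7 promoter held 2 E2F octamers and 3 CCAAT boxes, that of Ccnb1 1 CHR and 2 CCAAT boxes, and that of Aurka 1 CHR and no CCAAT box. That of Kif23 held 1 CHR and 1 CCAAT box. Mcm3 and Rrm1 had CCAAT boxes alone in the printed bases, 3 and 1 of them; the E2F octamer of Mcm3 was found only when the 50 bases after the start were included.

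Levels are log2 intensities relative to the 75th percentile of the sample, so a level of 0 is that percentile, and differences between segments come from a limma fit with their standard error (SE). Between 44.4% and 97.1% of spots were well above background, lowest in ileum 1 and in jejunum 1 (52.4%). The multiplier for this flag was 2.6 on the stomach arrays and 13 on the small bowel arrays, and the colon headers gave none. Detection is therefore not comparable between these sites. The 39 genes were well above background in every sample except jejunum 1 (29 of 39) and ileum 1 (37 of 39, without Pola1 and Nusap1), and none was saturated. Each duodenal sample shared an array with a jejunal sample of the other dye (1 with 3, 2 with 1 and 3 with 2 respectively), and colon 1 and 2 shared one hybridisation. All 3 colon samples were recorded under 1 slide, colon 3 in another scan, and were treated as 1 slide in the fit. The stomach arrays and the colon arrays each had scan days and a scanner software version of their own, and the ileal arrays scan days of their own, so for these sites the segment and the scan cannot be told apart. In these bulk suspensions, fewer dividing cells and less RNA per dividing cell cannot be told apart.

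Averaged over the 39 genes, the level was lowest in the stomach and in jejunum 1 and highest in the ileum. Stomach samples 1 to 3 had means of -0.50, -0.72 and -0.56. Duodenal samples had 0.49, 0.85 and 0.13, and jejunal samples -1.08, 0.50 and 0.39. Means of ileum 1 to 3 were 1.09, 0.91 and 0.96, and those of colon 1 to 3 were 0.60, 0.70 and 0.71. The stomach samples thus lay below every other sample except jejunum 1, and the ileal samples above all the rest. By segment means, 29 genes were lowest in the stomach, 8 in the jejunum and 2, Mcm5 and Pola1, in the colon, against 17.4%, 16.3% and 35.1% of all genes tested. Without jejunum 1, 35 genes were lowest in the stomach (18.4% of all genes) and 0 in the jejunum (12.9%). The highest mean was in the ileum for 26 genes and in the colon for 13, against 13.5% and 28.0% of all genes. For none was it in the duodenum, jejunum or stomach (7.71%, 11.6% and 39.2% of all genes). All genes here include those that passed the filter on dim probes through the stomach alone. Limma's F test over the 5 segments called 28 of the 39 genes, where 42.2% of all genes were called: 5 of 7 cyclins and Cdks, 7 of 11 replication genes, 3 of 4 nucleotide genes, 8 of 9 kinase and checkpoint genes and 5 of 8 chromosome and spindle genes. The count was 31 without jejunum 1, 17 without stomach 2 and 17 without stomach 3.

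**Figure D1:**
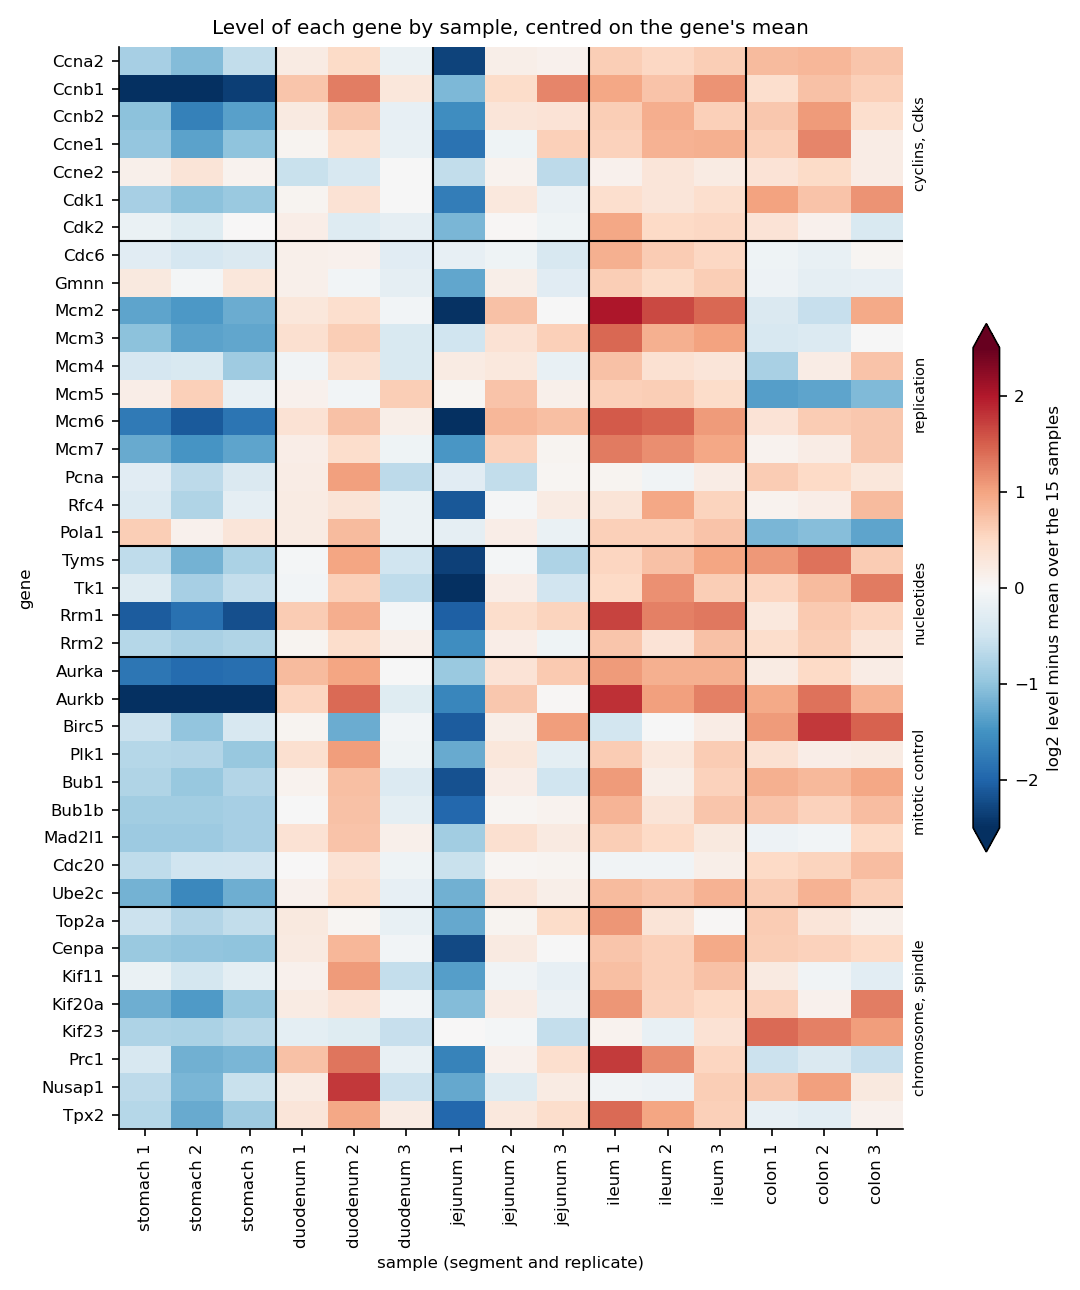
Heat map of the 39 genes (rows, grouped by role) in the 15 samples (columns), as the log2 level minus the gene's mean over all samples, red for higher and blue for lower. The 3 stomach columns and jejunum 1 are blue in most rows, the ileum columns are red in most, and Mcm5 and Pola1 are blue in the colon.

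In 4 of the 5 role groups the ileum had the highest segment mean, and in the kinase and checkpoint group the colon had. Replication genes had a mean level of 0.77, 0.65 and 0.57 in ileum 1 to 3 and of -0.44, -0.33 and -0.01 in colon 1 to 3, with no overlap. Kinase and checkpoint genes had ileal means of 1.83, 1.55 and 1.74 and colonic means of 1.71, 1.85 and 1.83, which overlapped. Of the 39 genes, 14 were lower in all colon samples than in all ileal samples (25.3% of all genes tested) and 6 were higher in all (22.5%). The 14 were Cdk2, Cdc6, Gmnn, Mcm2, Mcm3, Mcm5, Mcm6, Mcm7, Pola1, Rrm1, Aurka, Kif11, Prc1 and Tpx2, and the 6 were Ccna2, Cdk1, Pcna, Birc5, Cdc20 and Kif23. No test was run on the difference between role groups.

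**Figure D2:**
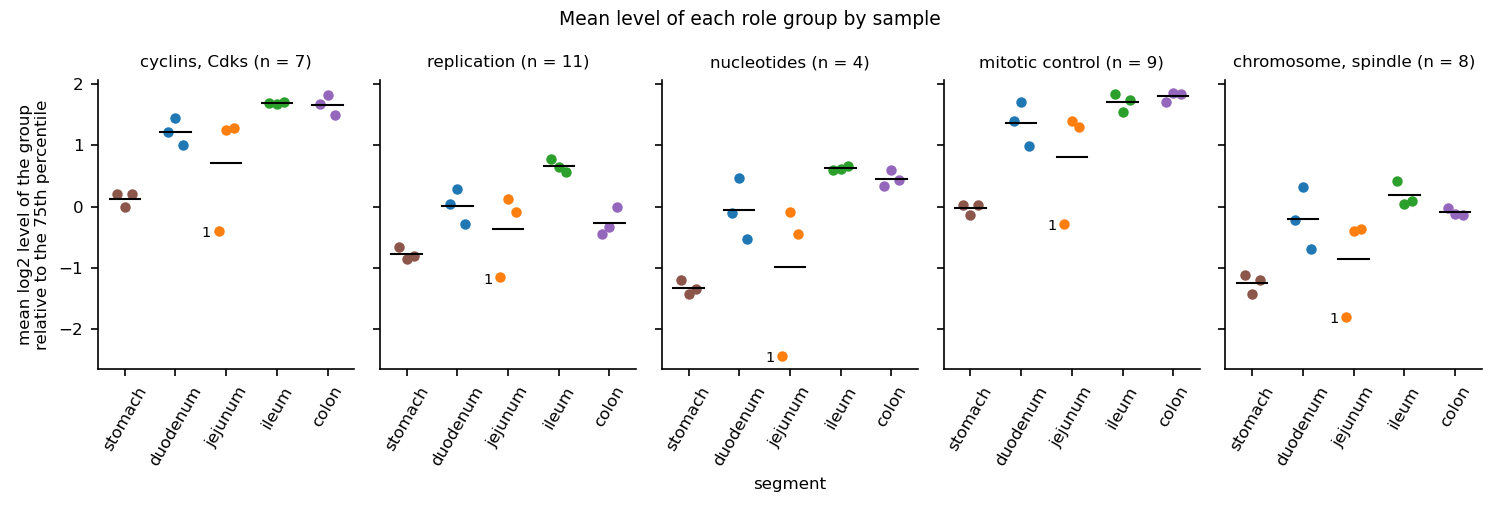
Mean log2 level of each role group (5 panels) by segment, one point per sample and a bar at the mean of the 3 samples; jejunum 1 is marked. Jejunum 1 lies below the other jejunal samples in every panel, and the colon lies below the ileum in the replication panel (-0.44 to -0.01 against 0.57 to 0.77).

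Jejunum 1 stood apart from the other jejunal samples in this gene set. It was lower than both of them for 34 of the 39 genes (47.9% of all genes tested), the lowest of the 9 small bowel samples for 33 (22.7%) and the lowest of all 15 for 21 (14.9%). The median difference from the mean of jejunum 2 and 3 was -1.59 on the log2 scale, a 3.01-fold lower level, and it ranged from -3.60 to 0.33. The median over all genes was -0.18. Of the 39 genes, 10 were not well above background there: Mcm2, Mcm6, Tyms, Tk1, Rrm1, Aurkb, Kif11, Prc1, Nusap1 and Tpx2. Tk1, the thymidine kinase of the salvage pathway, was at -3.86 in jejunum 1 and at -0.94 and -1.57 in jejunum 2 and 3. Kif23, a kinesin of the central spindle, was the one gene higher there than in both others, at 1.08 against 1.02 and 0.47. On the array it shared with duodenum 2, jejunum 1 was lower by more than 1 for 31 of the 39 genes (12.8% of all genes), with a median difference of 2.10. On the other shared arrays no gene of the 39 was lower by more than 1 in the jejunum (1.94% and 1.21% of all genes), and the median of duodenum minus jejunum was 0.13 and -0.32. Duodenum 2 was in turn the highest duodenal sample for 31 of 39 genes (32.9% of all genes).

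**Figure D3:**
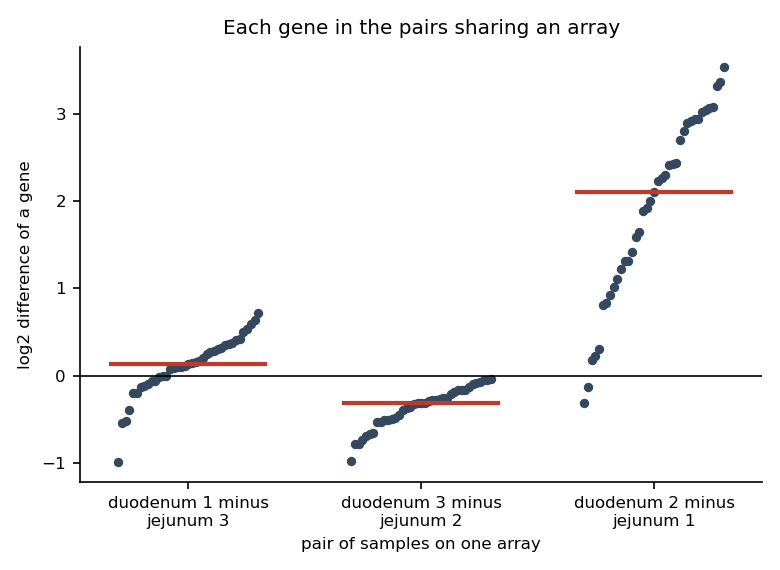
Log2 difference, duodenum minus jejunum, of each of the 39 genes (points, sorted) for the 3 pairs of samples hybridised to one array, with the median as a red line. The medians are 0.13 and -0.32 for the first 2 pairs and 2.10 for duodenum 2 minus jejunum 1.

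Villus enterocyte markers moved the opposite way in that sample, and Paneth cell markers did not. Villus and surface enterocyte genes (10 of 10 higher in jejunum 1 than in both other jejunal samples) had a mean level of 6.43 in jejunum 1, 4.28 and 4.32 in jejunum 2 and 3, 3.56 to 4.13 in the duodenum, 1.96 to 3.43 in the ileum, -0.87 to -0.73 in the colon and -2.42 to -2.15 in the stomach. Intestinal crypt stem and progenitor genes (9 of 11 lower in jejunum 1 than in both others) had a mean of -0.67 in jejunum 1, 0.54 and 0.43 in jejunum 2 and 3, 0.04 to 0.17 in the duodenum, 0.81 to 0.82 in the ileum, 0.76 to 0.81 in the colon and -0.33 to -0.28 in the stomach. Of 5 Paneth cell genes, 3 (Lyz2, Defa24 and Mmp7) were lower in jejunum 1 than in both others and 1, Reg3g, was higher; Defa24 was at 0.77 against 5.19 and 5.80. Of 9 T cell genes, 7 were higher there and 2 lower. Fibroblast and matrix genes were lower there in 5 of 7, B and plasma cell genes in 5 of 8 and endothelial genes in 4 of 5. In each of these lists 1 gene was higher. Of 5 epithelial genes 3 were higher and 0 lower, and of 8 immediate early genes 4 were higher and 1 lower. Over all genes tested, 47.9% were lower in jejunum 1 than in both other jejunal samples and 32.2% were higher. In all these lists every gene was well above background in at least 1 bowel sample. The part of the cell makeup, or of the lower share of spots above background, in the values of jejunum 1 was not tested. The counts over the 39 genes in each comparison are given with and without it; counts by role and of other genes are given with it only.

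**Figure D4:**
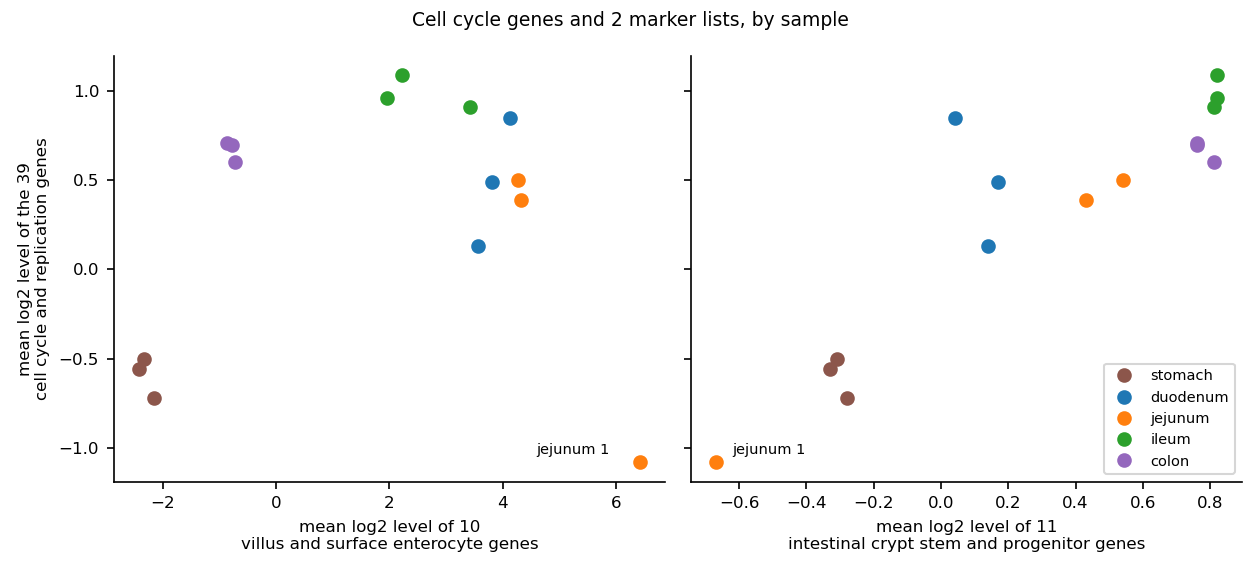
Mean log2 level of the 39 genes (vertical axis) against the mean log2 level of 10 villus and surface enterocyte genes (left) and 11 intestinal crypt stem and progenitor genes (right), one point per sample, coloured by segment. Jejunum 1, at -1.08, has the highest villus mean (6.43) and the lowest crypt mean (-0.67) of the 15 samples.

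The stomach was compared with the small bowel, the mean of duodenum, jejunum and ileum. Of the 39 genes, 19 were lower in the stomach and 0 were higher, where 11.8% of all genes tested were lower and 15.5% higher. The 19 were Ccnb1, Ccnb2, Ccne1, Cdk1, Mcm2, Mcm3, Mcm6, Mcm7, Rrm1, Rrm2, Aurka, Aurkb, Plk1, Mad2l1, Ube2c, Kif20a, Kif23, Prc1 and Tpx2. At an unadjusted p under 0.05, 25 were lower (14.5% of all genes) and 0 higher (23.2%). The median log2 difference was -0.86, and -1.14 relative to the median of all genes (0.28). Across the other scalings the median of all genes lay between -0.06 and 0.375, and that of the 39 genes relative to it between -1.14 and -0.87. The number lower was 27 without jejunum 1 and 28 without jejunum 1 and duodenum 2. It was 11 without stomach 2, 12 without stomach 3 and 8 with scan day as a random block. The fit called 8 of the genes lower under every alternative: Ccnb1, Mcm3, Mcm7, Rrm1, Aurka, Aurkb, Ube2c and Kif20a.

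Among the cyclins and Cdks, 4 of 7 were lower in the stomach. Ccnb1, cyclin B1, the partner of Cdk1 at mitotic entry, was at -1.01, -1.05 and -0.87 in stomach 1 to 3, and in the small bowel at 0.35 at the lowest, 2.19 at the median and 2.76 at the highest. All stomach samples lay below all small bowel samples, of which jejunum 1 was the lowest. The log2 difference was -3.08 ± 0.36 (SE), an 8.45-fold lower level (adjusted p = 4.56e-06). The other Ccnb1 probe differed by -1.53 between the means of stomach and small bowel. Cdk1, the mitotic kinase, was at 2.26, 2.07 and 2.18 in the stomach, and at 1.37, 3.36 and 3.52 (lowest, median, highest) in the small bowel. Only jejunum 1 overlapped with the stomach, and the difference was -0.92 ± 0.33 (adjusted p = 0.0479). The call for Cdk1 was lost in 18 of 29 alternatives, including quantile normalisation and the omission of any stomach sample. Cyclin B2 (Ccnb2) differed by -1.57 ± 0.38 and cyclin E1 (Ccne1) by -1.25 ± 0.39. Cyclin A2 (Ccna2, -0.86 ± 0.41, adjusted p = 0.133), cyclin E2 (Ccne2, 0.34 ± 0.22, adjusted p = 0.281) and Cdk2 (-0.20 ± 0.26, adjusted p = 0.616) did not pass.

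Of the 11 replication genes, 4 subunits of the Mcm2-7 helicase were lower in the stomach. Mcm3 was at -0.71, -1.02 and -0.98 in the stomach and at -0.18, 0.91 and 1.76 (lowest, median, highest) in the small bowel, with no overlap. Its difference was -1.72 ± 0.29 (adjusted p = 0.000207). Mcm6 differed by -2.35 ± 0.56 (adjusted p = 0.00411), Mcm2 by -1.78 ± 0.54 and Mcm7 by -1.69 ± 0.35, each with jejunum 1 inside or below the stomach range. The other helicase subunits did not pass, with -0.75 ± 0.34 for Mcm4 and -0.16 ± 0.23 for Mcm5. Pcna, the sliding clamp of the replication fork, was at 2.73, 2.37 and 2.65 in the stomach and at 2.36, 3.07 and 4.05 (lowest, median, highest) in the small bowel. Its ranges overlapped and it did not pass (-0.43 ± 0.27, adjusted p = 0.266). Neither did Cdc6, the loader of the helicase (-0.50 ± 0.23), geminin (Gmnn, 0.15 ± 0.26), which blocks relicensing, the clamp loader subunit Rfc4 (-0.46 ± 0.38) or Pola1, the catalytic subunit of DNA polymerase alpha (0.06 ± 0.27).

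Both subunits of ribonucleotide reductase, which makes deoxyribonucleotides, were lower in the stomach by their brightest probes. Rrm1 was at -2.49, -2.27 and -2.61 in the stomach and at -2.44, 0.24 and 1.29 (lowest, median, highest) in the small bowel. Apart from jejunum 1, which lay within the stomach range and was not well above background, the samples did not overlap. The difference was -2.57 ± 0.45 (5.95-fold, adjusted p = 0.000333). The other Rrm1 probes differed by -0.88 and -0.84 between the means of stomach and small bowel. Rrm2 was at 0.02, -0.08 and -0.02 in the stomach and at -0.83, 0.90 and 1.46 (lowest, median, highest) in the small bowel. Only jejunum 1 lay below the stomach. The Rrm2 difference was -0.86 ± 0.30 (adjusted p = 0.0443), a call lost in 17 of 29 alternatives, among them all probes averaged. The other Rrm2 probe differed by -0.10 between the means of stomach and small bowel. Thymidylate synthase (Tyms, -0.82 ± 0.46) and Tk1 (-0.48 ± 0.52) did not pass.

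Of the mitotic kinase, checkpoint and ubiquitin ligase genes, 5 of 9 were lower in the stomach. Aurkb, the kinase of the chromosomal passenger complex, was at -3.51, -3.97 and -3.58 in the stomach and at -2.65, -0.33 and 0.82 (lowest, median, highest) in the small bowel, with no overlap. Its difference of -3.21 ± 0.49, 9.25-fold, had the largest size of the 39 (adjusted p = 8.56e-05). Aurka, the centrosomal Aurora kinase, was at -1.63, -1.74 and -1.70 in the stomach and at -0.75, 0.97 and 1.24 (lowest, median, highest) in the small bowel. Its groups did not overlap either, and the difference was -2.39 ± 0.32 (5.23-fold, adjusted p = 2.15e-05). Plk1, the polo-like kinase of mitotic entry and exit, was at 1.48, 1.45 and 1.23 in the stomach and at 0.93, 2.47 and 3.23 (lowest, median, highest) in the small bowel. Only jejunum 1 overlapped (-0.98 ± 0.33, adjusted p = 0.0375), and the call was lost in 11 of 29 alternatives. Ube2c, the ubiquitin-conjugating enzyme of the anaphase-promoting complex, differed by -1.56 ± 0.30 and the checkpoint gene Mad2l1 by -1.13 ± 0.28. The kinases Bub1 (-0.79 ± 0.42) and Bub1b (-0.91 ± 0.39), the anaphase activator Cdc20 (-0.52 ± 0.20) and survivin (Birc5, -0.38 ± 0.40), a partner of Aurkb, did not pass.

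Of the chromosome and spindle genes, 4 of 8 were lower in the stomach. The midzone genes were Kif20a (-1.38 ± 0.32), Prc1 (-1.38 ± 0.48) and Kif23 (-0.59 ± 0.19), and the spindle assembly factor was Tpx2 (-1.31 ± 0.42). Top2a, the topoisomerase that untangles sister chromosomes, was at 1.25, 1.05 and 1.18 in the stomach and at 0.52, 1.86 and 2.90 (lowest, median, highest) in the small bowel. Only jejunum 1 lay below the stomach samples, and Top2a did not pass (-0.72 ± 0.32, adjusted p = 0.106). Nor did the centromere histone Cenpa (-1.10 ± 0.43), the spindle motor Kif11 (-0.39 ± 0.39) or the microtubule-bundling protein Nusap1 (-0.84 ± 0.47).

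How far the samples overlapped turned on jejunum 1. All stomach samples lay below all 9 small bowel samples for 6 of the 39 genes (9.64% of all genes) and below the 8 small bowel samples other than jejunum 1 for 28 (12.3%). None of the 39 lay above in either case (15.3% and 17.2% of all genes). Other cell types moved with this comparison: 6 of 7 genes of fibroblasts and matrix had a higher level in stomach, with a mean of 1.36 to 1.51 against -2.35 to -0.90 in the small bowel, and 4 of 5 endothelial genes were higher. Of 5 epithelial genes 3 were lower, with a mean of 4.22 to 4.63 in the stomach and 4.96 to 6.18 in the small bowel. Immediate early genes were lower in 7 of 8. The part of these in the lower level of the cell cycle genes was not tested.

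**Figure D5:**
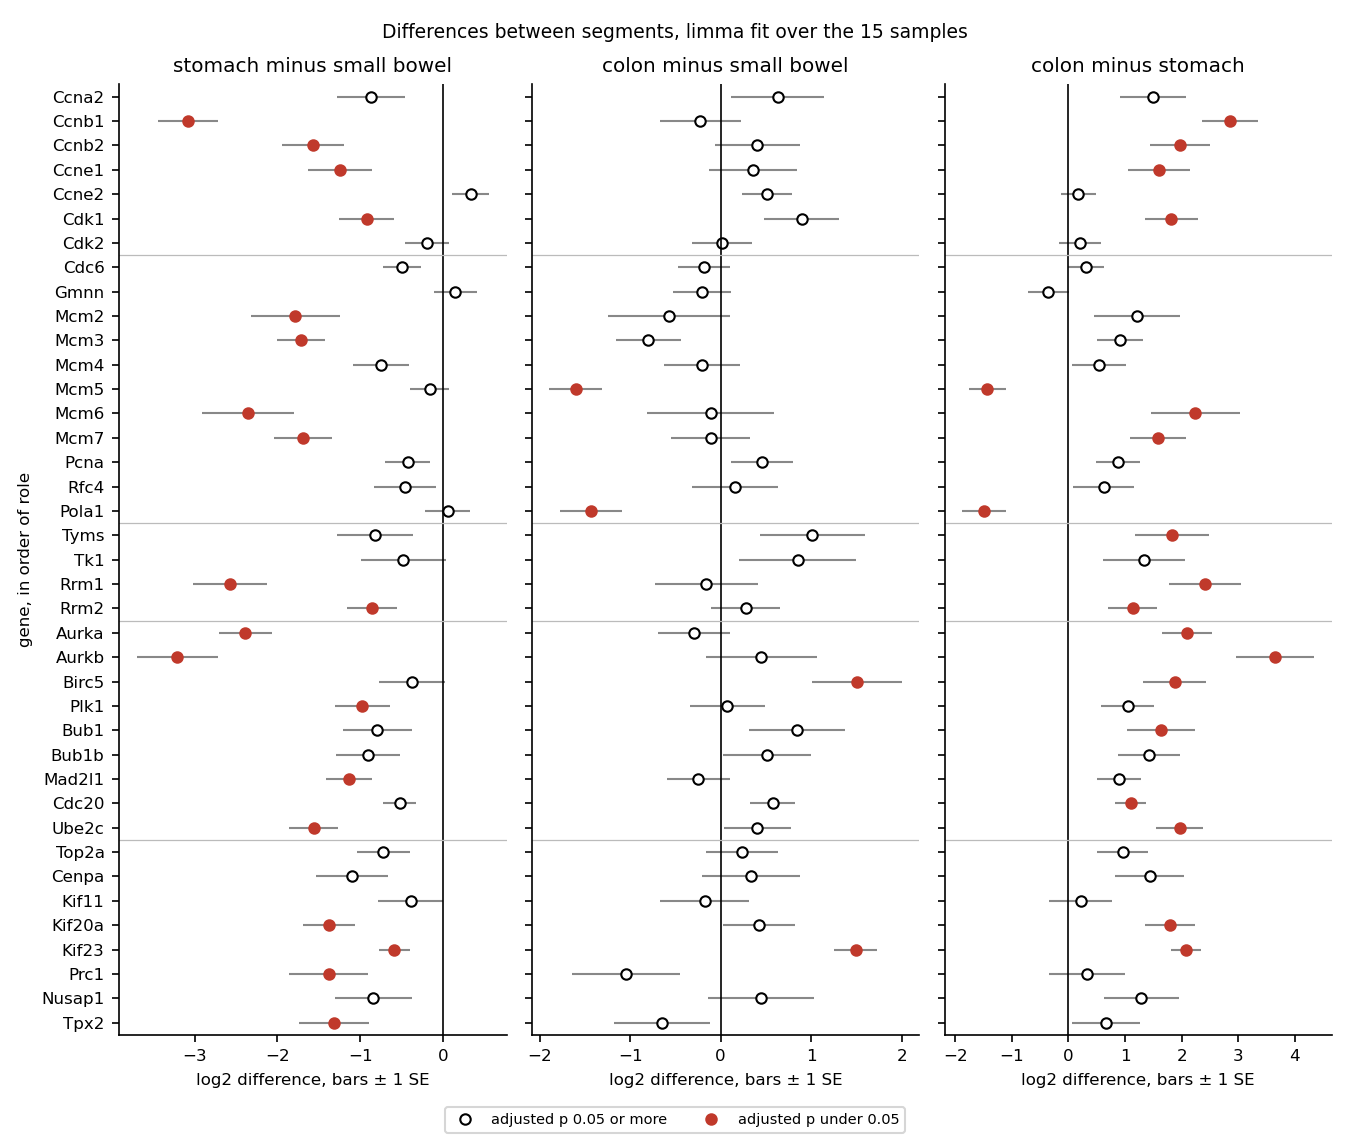
Log2 difference of each gene (rows, in order of role) with bars of 1 SE, for stomach minus small bowel, colon minus small bowel and colon minus stomach (panels). Filled points have an adjusted p under 0.05: 19 genes are lower in the first panel, 2 higher and 2 lower in the second, and 17 higher and 2 lower in the third.

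Colon and stomach were compared directly, since neither side then holds jejunum 1. Of the 39 genes, 17 were higher in the colon (14.5% of all genes tested) and 2 were lower (20.9%). The 17 were Ccnb1, Ccnb2, Ccne1, Cdk1, Mcm6, Mcm7, Tyms, Rrm1, Rrm2, Aurka, Aurkb, Birc5, Bub1, Cdc20, Ube2c, Kif20a and Kif23. All colon samples lay above all stomach samples for 31 genes (28.2% of all genes) and below them for 3 (41.9%). The median difference was 1.29, and 1.54 relative to all genes (-0.25). With normexp background correction it was 0.98, and 0.60 relative to all genes, 26 genes were higher and 1 lower, and 65.7% of all calls were toward the colon instead of 40.9%. The number higher was 11 without stomach 2, 10 without stomach 3, and 26 without jejunum 1, which enters only through the spread and the dye and array terms. Other cell types moved with this comparison too: 5 of 7 fibroblast and 3 of 5 endothelial genes were lower in the colon (median -3.83 and -1.60), and 4 of 5 epithelial and 7 of 8 immediate early genes were higher (median 2.20 and 4.90). Their part in the result was not tested.

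Aurkb was at -0.06, 0.35 and -0.15 in colon 1 to 3, above its stomach levels in all samples by 3.66 ± 0.69, or 12.6-fold (adjusted p = 0.000666). Ccnb1 was at 1.90, 2.20 and 2.08 in the colon (2.86 ± 0.50, 7.24-fold, adjusted p = 0.000384). Rrm1, at -0.13, 0.25 and 0.13, differed by 2.42 ± 0.64 (adjusted p = 0.00745), and Mcm6, at 0.18, 0.47 and 0.51 against -1.93, -2.25 and -1.99 in the stomach, by 2.24 ± 0.79 (adjusted p = 0.0352). None of these 4 genes overlapped between colon and stomach. Mcm6 lost its call in 7 of 29 alternatives, among them the omission of any stomach sample. Rrm1 lost its call with all probes averaged. The 2 genes lower in the colon were the helicase subunit Mcm5 (-1.44 ± 0.33, adjusted p = 0.00292) and Pola1 (-1.50 ± 0.38, adjusted p = 0.00635). Pola1 lost its call with normexp and without duodenum 2, where its other probe may have stood for it.

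The colon and the small bowel differed in few of the genes. Of the 39, 2 were higher in the colon, where 12.6% of all genes tested were, and 2 were lower, where 13.2% were, so both shares were below those of all genes. The median difference was 0.24, against 0.00 over all genes. Its sign was not stable: relative to all genes it was 0.235 with 75th percentile scaling, -0.08 with quantile normalisation and -0.23 with normexp, where 66.1% of all calls were toward the colon instead of 48.8%. Without duodenum 2, 1 gene was higher and 1 lower. Without jejunum 1, 3 were higher and 4 lower, and without both samples 8 were higher. The number higher was 1 without any one of duodenum 3, ileum 1 and the 3 colon samples. Cell type lists also differed between these sites. Villus and surface enterocyte genes had a mean level of -0.87 to -0.73 in the colon and 1.96 to 6.43 in the small bowel. One of them, Krt20, was at 7.26 to 7.55 in the colon and at 5.18 to 7.83 in the small bowel. Paneth genes were at -2.55 to -1.37 against -0.33 to 2.99, and T cell genes at -1.32 to -1.17 against -0.62 to 1.30. The mean of the 5 epithelial genes was higher in the colon (6.29 to 6.53 against 4.96 to 6.18). Of these only Krt18 was called, and that call was lost with normexp and with quantile normalisation. The mean of the crypt genes overlapped (0.76 to 0.81 against -0.67 to 0.82), but single genes differed in both directions. Olfm4 was lower in the colon (-2.53 to -2.28 against -1.1 to 3.83). Prom1 (4.69 to 5.02 against 1.15 to 2.81) and Sox9 (3.7 to 4.66 against 1.58 to 3.16) were higher. The part of these lists in the result was not tested.

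Kif23 was at 2.48, 2.32 and 2.11 in the colon and at 0.47, 0.87 and 1.43 (lowest, median, highest) in the small bowel. All colon samples lay above, by 1.49 ± 0.24 (2.81-fold, adjusted p = 0.000228), and with 0.29, 0.28 and 0.37 in the stomach the 3 sites did not overlap at all. Birc5 was at 3.16, 3.85 and 3.57 in the colon and at 0.02, 2.08 and 3.14 in the small bowel (lowest, median, highest). The groups were separated by a narrow margin, jejunum 3 being the highest small bowel sample, and the difference was 1.50 ± 0.50 (adjusted p = 0.0346), a call lost in 8 of 29 alternatives. Mcm5 was at -1.94, -1.87 and -1.65 in the colon and at -0.63, -0.10 and 0.16 in the small bowel (lowest, median, highest). Here the stomach, at -0.39, 0.05 and -0.74, lay within or just below the small bowel range, and the colon lay below all others, by -1.60 ± 0.29 against the small bowel (3.03-fold, adjusted p = 0.000774). Mcm5 and Kif23 kept their calls in all 29 alternatives. Pola1 was at -3.05, -2.98 and -3.23 in the colon and at -2.15, -1.71 and -1.13 in the small bowel (lowest, median, highest), with no overlap. Its difference was -1.44 ± 0.34 (adjusted p = 0.00551), but 0.05 with normexp and -0.38 between the means of its other probe. The mean levels of the Pola1 probes were close (-1.92 and -1.99), and the brighter was chosen anew in each alternative. The normexp value may thus come from the other probe.

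Several genes had probes that disagreed in this comparison. Of the 39 genes, 16 had more than 1 probe, and the sign of colon minus small bowel differed between the probes for 7 of them (Bub1b, Ccna2, Ccnb1, Ccne1, Cdk2, Plk1 and Top2a). In Ccnb1 (-0.04) and Cdk2 (-0.02) the colon difference of the brightest probe was near 0. For stomach minus small bowel the sign differed for 2, Bub1b and Ccne2, and the size differed for others. The Bub1b probe of other sign was dim, well above background in 3 samples only, at a mean level of -5.25. The remaining Bub1b probes had the same sign, at -0.91 and -1.32 for the stomach and 0.64 and 0.62 for the colon. Other probes gave smaller differences for Ccnb1, Rrm1 and Rrm2, and larger ones for Ccna2 (-1.94 against -0.86) and Plk1 (-1.79 against -0.98). The brightest probe of Plk1 differed by 0.07 between the means of colon and small bowel, and its other probe by -0.82. For Top2a the values were 0.27 and -1.14.

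Within the small bowel the ileum had the highest levels, and how much of this passed the test depended on single samples. For ileum minus jejunum, 1 of 39 genes was higher (1.51% of all genes tested) and 0 were lower (2.83%), while 29 were higher at an unadjusted p under 0.05 (11.2% of all genes) and 0 lower (10.3%). All ileal samples lay above all jejunal samples for 27 genes (12.6% of all genes). The median difference was 1.095, and 0.501 without jejunum 1. The number higher was 0 without jejunum 1, 27 without jejunum 2, 11 without duodenum 3 and 19 with normexp. The samples themselves were less divided: all ileal samples lay above jejunum 2 and 3 for 27 of the 39 genes (17.1% of all genes) and below them for 0 (16.0%). Cell type markers also differed between these segments: 8 of 10 villus genes were lower in the ileum (median -2.36), and 2 of 11 crypt genes (Olfm4 and Prom1), 2 of 5 Paneth genes (Mmp7 and Reg3g) and 2 of 9 T cell genes (Cd3e and Cd8a) were higher. Without jejunum 1 the calls of Olfm4, Prom1 and Mmp7 were lost, as they were in 19, 12 and 6 of 29 alternatives respectively. Reg3g and Cd8a kept their calls in all 29, and Cd3e lost its call only with normexp. The part of these markers in the result was not tested.

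The gene that passed was Mcm2, at 1.24, 0.88 and 0.66 in ileum 1 to 3 and at -3.24, -0.05 and -0.78 in jejunum 1 to 3. All ileal samples were above, jejunum 1 was not well above background, and the difference was 2.42 ± 0.65 (5.34-fold, adjusted p = 0.0446). Mcm2 lost this call in 18 of 29 alternatives, among them the omission of jejunum 1. The next largest differences did not pass: Mcm6 with 1.96 ± 0.68 (adjusted p = 0.107), Tk1 with 1.91 ± 0.63 (adjusted p = 0.091), Rrm1 with 1.89 ± 0.55 (adjusted p = 0.06) and Tyms with 1.87 ± 0.56 (adjusted p = 0.0677).

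Ileum and duodenum, compared after the other results were seen, hold jejunum 1 on neither side. No gene of the 39 was called by limma in either direction (1.38% of all genes were higher and 1.49% lower), and 5 were higher at an unadjusted p under 0.05 (7.78%) and 0 lower (7.1%). All ileal samples nevertheless lay above all duodenal samples for 15 genes (11.7% of all genes) and below for 0 (9.05%), with a median difference of 0.63. For 13 genes all ileal samples lay above the other 6 small bowel samples (6.94% of all genes): Ccna2, Ccne2, Cdk2, Cdc6, Gmnn, Mcm2, Mcm3, Mcm6, Mcm7, Rfc4, Rrm1, Ube2c and Kif20a. Of these 13, 7 are replication genes. Mcm2 was at -0.50, -0.35 and -0.84 in the duodenum and differed by 1.75 ± 0.69 (adjusted p = 0.224), and Mcm3, at 0.71, 0.93 and -0.06 there against 1.76, 1.21 and 1.33 in the ileum, by 1.00 ± 0.37 (adjusted p = 0.186). In the fit without jejunum 1, 1 gene was higher, and without jejunum 1 and duodenum 2, 4 were.

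Duodenum and jejunum did not differ in any of the 39 genes by limma's adjusted p (0.248% of all genes were higher and 0.278% lower), and 5 were higher in the duodenum at an unadjusted p under 0.05 (4.3%) and 0 lower (4.2%). The median difference was 0.45, which became -0.007 without jejunum 1 and -0.09 without jejunum 1 and duodenum 2. Without jejunum 1 no gene of the 39 was called, and without jejunum 2, 9 were higher in the duodenum. For no gene of the 39 were the duodenal and the jejunal samples separate (3.12% of all genes were separate with the duodenum higher and 3.73% lower).

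Other genes of the same pathways were counted for context, 97 tested of 107 listed. In the stomach against the small bowel 34 were lower and 3 higher (35.1% and 3.09%, against 11.8% and 15.5% of all genes; median -0.62). In the colon against the stomach 33 were higher and 4 lower (34.0% and 4.12%, against 14.5% and 20.9%; median 0.93). In the colon against the small bowel 12 were higher, a share of 12.4% near the 12.6% of all genes, and 6 were lower (6.19% against 13.2%). For ileum minus jejunum 5 were higher and 0 lower (5.15% and 0%, against 1.51% and 2.83%), and for duodenum minus jejunum 0 passed in either direction, with 13 higher and 0 lower at an unadjusted p under 0.05. Mki67, the proliferation antigen, was lower in the stomach (-1.34 ± 0.36, adjusted p = 0.00983), with jejunum 1 again below the stomach range at -1.28. In the colon Mki67 was at -0.36, -0.87 and -0.79, and it was called neither against the stomach nor against the small bowel. Myc, a transcription factor of growth, differed by -0.96 ± 0.23 in the stomach (adjusted p = 0.0042) and Cdk6, a kinase of G1, by -2.63 ± 0.36 (adjusted p = 3.17e-05).

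By list, the stomach had 15 of 32 further replication genes lower and 1 higher, 12 of 36 mitosis genes lower and 1 higher, 4 of 17 G1 cyclins, kinases and inhibitors lower and 1 higher, and 3 of 12 regulators lower, where 11.8% of all genes were lower and 15.5% higher. Those lower in the G1 list were the cyclin Ccnd2, the kinase Cdk6 and the inhibitors Cdkn1a and Cdkn2b, and the 1 higher was the cyclin Ccnd1. The largest difference was that of Gins2, a subunit of the replicative helicase, among the replication genes (-1.96 ± 0.46) and that of the spindle gene Tacc3 among the mitosis genes (-2.24 ± 0.38). In the colon against the small bowel, 7 of 36 mitosis genes were higher and 1 was lower (19.4% and 2.78%, against 12.6% and 13.2% of all genes), with the largest differences for Hmmr (2.10 ± 0.55), which was also the mitosis gene higher in the stomach (1.45 ± 0.44), and securin (Pttg1, 1.48 ± 0.26). Of the 32 replication genes, 2 were higher and 2 lower there (6.25% each, below both shares of all genes); the lower ones were the polymerase subunits Pola2 (-2.05 ± 0.60) and Pole (-1.47 ± 0.28). Cyclin D1 (Ccnd1) was at 5.10, 4.92 and 4.92 in the colon against 2.50 to 3.61 in the small bowel (1.90 ± 0.23, adjusted p = 1.43e-05), and the phosphatase Cdc25a was lower in the colon (-1.40 ± 0.28, adjusted p = 0.00162). In the ileum against the jejunum, Cdk6 (2.36 ± 0.44), the licensing factor Cdt1 (1.86 ± 0.50), Tipin of the replication fork (1.62 ± 0.43), Tacc3 (1.86 ± 0.46) and the kinetochore gene Cenpf (1.73 ± 0.43) were higher. Without jejunum 1 the calls of Cdt1, Tipin, Tacc3 and Cenpf were lost, as they were in 17, 15, 8 and 13 of 29 alternatives respectively; Cdk6 lost its call in 1, normexp.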

How the data were processed

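Agilent Feature Extraction tables of 15 samples were used as deposited. Per the file headers, the authors' scanner software (versions 8.5.1.1, 9.5.1.1, 9.5.3.1 and 10.1.1.1) subtracted background and normalised dyes to give the processed intensity of each spot. The channel carrying each sample's label was used. The log2 of this deposited intensity, less the sample's 75th percentile, is the level. Flagged spots were left out, and a probe entered the test when all samples of some segment had it well above background. The brightest tested probe stood for a gene, and it was chosen anew in each alternative except with all probes averaged. The flag for well above background was set at different multiples by the software versions. Shares of all genes thus include genes admitted through the stomach alone. With the filter set without the stomach, 27034 genes were tested. Of these, 4011 were lower and 4268 higher in the stomach against the small bowel, instead of 3923 and 5142 of 33111.

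Segments were compared in one limma fit (3.58.1, R 4.3.3) with segment and dye as terms, the slide as a random block (correlation 0.361) and an intensity trend. P-values are two-sided and Benjamini-Hochberg adjusted over 33111 genes, called under 0.05. The fit was tested on simulated data. The small bowel is the mean of its 3 segments. The number of arrays limits the precision.

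The members and lists were chosen with earlier results of these data known. Values by sample are given for up to 4 called genes per direction and comparison with the largest difference and no overlap, for the brightest gene of each role, and for genes called against the direction of most. For other pathway genes, up to 3 per list and comparison with the largest called difference are named; 1 marker gene is not reported here. Alternatives were normexp background correction on the median spot signal (offset 50), quantile and median scaling, the deposited value table, other filters, all probes averaged, other blocks and terms, and the omission of each sample. Ileum minus duodenum, from the same fit, was added after seeing the data.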

Additional observations from a re-analysis of the deposited data

How the results depend on the processing

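The 0 genes higher in stomach against small bowel, and the 0 lower in the ileum, held in all 29 alternatives. With scan day as a block, 8 genes were lower in the stomach, and 28 without duodenum 2 and jejunum 1. Leaving out 1 sample at a time, 11 to 27 were lower (median -1.14 to -0.71). For colon minus small bowel, the number higher was 1 with quantile normalisation or no intensity trend, 4 without the slide block and 8 without duodenum 2 and jejunum 1; leaving out 1 sample it was 1 to 3, with 1 to 4 lower (median 0.087 to 0.391). For colon minus stomach, normexp gave 26 higher and 1 lower, no slide block 26 higher, and the omission of duodenum 2 and jejunum 1 29; leaving out 1 sample gave 10 to 26 higher and 1 to 2 lower (median 1.142 to 1.426). For duodenum minus jejunum the median was -0.09 without those 2 samples, and 0 to 9 were higher (median -0.007 to 0.877) leaving out 1 sample. For ileum minus jejunum, the number higher was 19 with normexp, 3 with the filter set without the stomach, 5 without the slide block, 2 without the dye term, and 0 with flagged spots kept, all probes averaged, scan day as a block, no trend, the replicate block, or without duodenum 2 and jejunum 1 (median 0.549); leaving out 1 sample it was 0 to 27 (median 0.501 to 1.586). For ileum minus duodenum it was 1 with normexp and 4 without duodenum 2 and jejunum 1, and 0 to 2 leaving out 1 sample (median 0.356 to 0.894). The F test called 17 to 34 genes leaving out 1 sample. The causes were not tested.

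Directions reversed with normexp for Pola1 in colon minus small bowel (0.051) and, in colon minus stomach, for E2f7 (0.361) and Defa5 (0.215). They reversed with all probes averaged for Rb1 in colon minus stomach (-0.034) and Col1a1 in ileum minus jejunum (0.036). Without ileum 3 the direction of Gzmb, stomach minus small bowel, reversed too (0.011), and leaving out 1 sample gave -5.081 to 0.011. The filter and the choice of the brightest probe were repeated in each alternative, so the probe standing for a gene could change. The Gzmb probe of the main fit was at -0.46 to -0.13 in the stomach and at 0.41 to 3.31 in the small bowel. Its reversal is therefore not to be read as the effect of ileum 3 on that probe.

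Deviations of same-numbered samples from their segment means correlated between -0.421 and 0.294 (median -0.016, 30 pairs). Those of differently numbered samples on other arrays correlated between -0.382 and 0.505 (median -0.026, 57 pairs). The 3 pairs that shared an array correlated at 0.492 to 0.552. Since array effects enter the same deviations, these values cannot show whether the replicate numbers pair the samples. With the replicate block, 19 genes were lower in the stomach, 20 were higher and 2 lower in the colon against the stomach, 2 higher and 2 lower in the colon against the small bowel, 0 higher in the ileum against the jejunum, and the F test called 29.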
